A study of Ovis aries with 6 samples.

Results

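Bone morphogenetic proteins (BMPs) and transforming growth factors beta (TGF-beta) were followed here through 10 genes of sheep skin: the ligands BMP2, BMP4, BMP7, TGFB1, TGFB2 and TGFB3, the BMP inhibitors NOG and GREM1, and the type I BMP receptors BMPR1A and BMPR1B. They were taken by symbol and are 10 of the 28394 genes in the deposited files. All 10 were found, and 9 of them passed the filter on low counts, as did 15320 genes in all, with NOG below it. Skin RNA came from ewes of 2 breeds, 3 Super Merino (SM, sheep 128, 30034 and 30126), a fine wool breed, and 3 Small Tail Han (STH, sheep XW3, XW5 and XW8), a coarse wool breed, with 1 polyA library per sheep and no treatment. The labels give an age of 9 months for every sheep, whereas the methods of the study give a younger age. Each group was a whole breed, so that everything that differed between the breeds was compared at once, and in whole skin fewer cells of a type and less RNA per cell cannot be told apart.

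BMPs and TGF-beta bind pairs of type I and type II receptors, which phosphorylate SMAD proteins that enter the nucleus and regulate target genes. BMP ligands pass through type I receptors that include BMPR1A and BMPR1B to SMAD1, SMAD5 and SMAD9. TGF-beta passes through TGFBR1 and TGFBR2 to SMAD2 and SMAD3. In the hair and wool follicle, BMP signalling is known to hold stem cells in rest and to be needed for the differentiation of the hair shaft, and noggin and gremlin bind BMPs outside the cell and keep them from their receptors. TGF-beta is known for its part in the regression of the follicle and in the making of dermal matrix, with TGFB2 also acting when a resting follicle starts to grow again. BMPR1B is known in sheep as the gene of the Booroola fecundity variant.

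Total counts ranged from 28870583 to 44645091 per library, so that 3 counts equalled 0.0672 to 0.1039 CPM (counts scaled to library size). Two-sided tests were made with edgeR's quasi-likelihood method, and a gene was called at a Benjamini-Hochberg adjusted p under 0.05 with a fold change beyond 1.5 in either direction. Of the 15320 genes, 0 were called, which is 0.0% of them, and the smallest adjusted p was 0.0606. An unadjusted p under 0.05 was found for 2762 genes, 7.21% of the genes tested being higher in SM and 10.8% higher in STH. DESeq2 called 443 genes (2.89%) and the likelihood ratio test of edgeR called 352 (2.3%). Sheep 30126 and XW5 stood at the ends most often. Sheep 30126 held the lowest value of the 6 for 31.5% of the genes and the highest for 33.4%, and XW5 the lowest for 21.5% and the highest for 23.3%. Marker genes of skin were present in every library, and the summed CPM of the 5 suprabasal epidermal markers found ranged from 2330 to 3219 in SM and from 3959 to 7178 in STH.

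The 10 genes lie on 7 chromosomes of the Oar_v4.0 assembly, with lengths given as the sum of exons. BMP4 (chr7:63422487-63652045, minus strand, 3007 bp of exons), GREM1 (chr7:26949586-26965535, minus strand, 4370 bp) and TGFB3 (chr7:84137441-84162082, minus strand, 4668 bp) share chromosome 7. BMP2 (chr13:48387181-48400679, plus strand, 3208 bp) and BMP7 (chr13:58080968-58163747, plus strand, 1772 bp) share chromosome 13. BMPR1A is at chr25:40872199-41016359 on the plus strand and has the longest exon sum of the 10, 7913 bp. BMPR1B is at chr6:29295574-29461660 on the minus strand with 3198 bp of exons. TGFB1 (chr14:49553525-49567792, plus strand, 1142 bp) and TGFB2 (chr12:19872241-19967215, plus strand, 6119 bp) differ widely in exon length. The model of NOG (chr11:6939215-6939919, plus strand) is a single stretch of 705 bp. Other gene models overlap 3 of the 10. The genes overlapping BMPR1B and TGFB2 had no counts, and of the 3 that overlap BMPR1A only LOC101112536 had any, between 10 and 39 per sheep against 1960 to 6712 for BMPR1A.

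BMP4, BMP7 and TGFB1 shared the highest levels per exon length. The mean over all 6 sheep was 20.6 ± 2.37 RPKM (reads scaled to exon length and library size; SD, n = 6) for BMP4, 20.5 ± 3.32 for BMP7 and 20.03 ± 5.27 for TGFB1, all above the RPKM of more than 84% of the genes tested. BMP4 lay above BMP7 in 4 of 6 sheep and BMP7 above TGFB1 in 4 of 6, so that these neighbours were not separated by their spread. GREM1 (12.9 ± 2.69 RPKM), BMP2 (11.8 ± 2.35 RPKM) and BMPR1A (9.55 ± 3.29 RPKM) came next, again with overlapping ranges. TGFB2 had 4.18 ± 0.733 RPKM and TGFB3 had 3.32 ± 0.369 RPKM, and TGFB2 was the higher of the pair in 5 of 6 sheep. BMPR1B had 1.57 ± 0.481 RPKM and lay below the range of TGFB3, and NOG, at 0.186 ± 0.0806 RPKM, lay below the range of BMPR1B. These were the 2 steps of the order in which the ranges did not overlap. TGFB1 made up 64.0% to 79.6% of the summed RPKM of the 3 TGFB genes in each sheep.

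**Figure D1:**
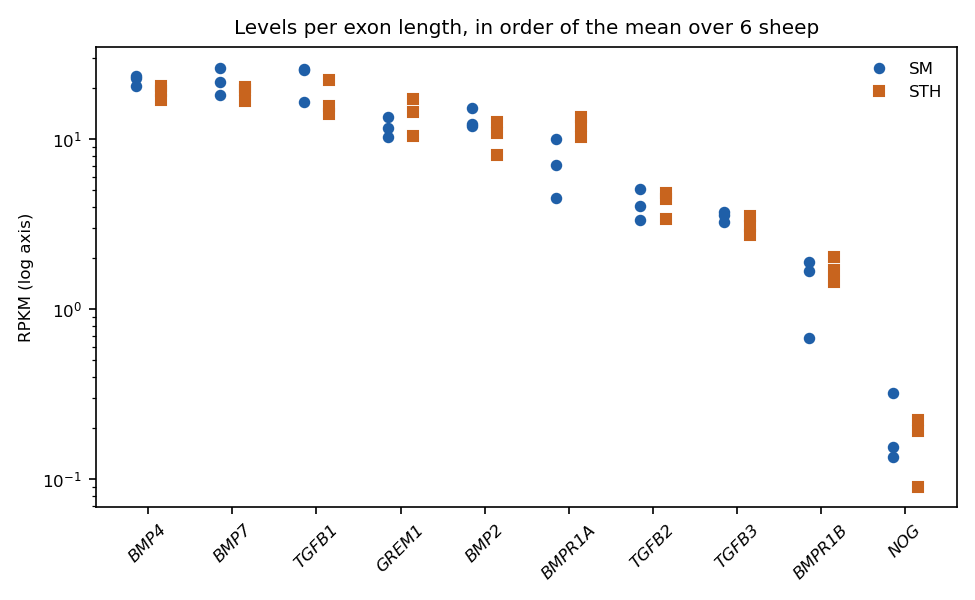
Levels of the 10 genes per exon length, with RPKM on a log axis and the genes ordered by their mean over 6 sheep. Circles are SM sheep and squares are STH sheep. BMP4, BMP7 and TGFB1 lie together near 20 RPKM, and NOG lies lowest with a mean of 0.186 RPKM.

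Whether the 2 breeds differ in the skin expression of these genes was then asked gene by gene. By the thresholds above, 0 of the 9 tested genes were called, as for all genes. At an unadjusted p under 0.05 by edgeR there was 1, BMPR1A, higher in STH, against 10.8% of all genes in that direction. BMPR1A was also the 1 tested gene in which every STH animal exceeded every SM animal. Over all genes tested, 13.3% had all STH sheep above all SM sheep and 12.3% the reverse, so that 1 of 9 is near the share of all genes. Of the 9 log2 fold changes of SM over STH, 5 lay above 0 and 4 below, with a median of 0.13, against a median of 0.02 over all genes. DESeq2 and the likelihood ratio test each called 0 of the 9.

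**Figure D2:**
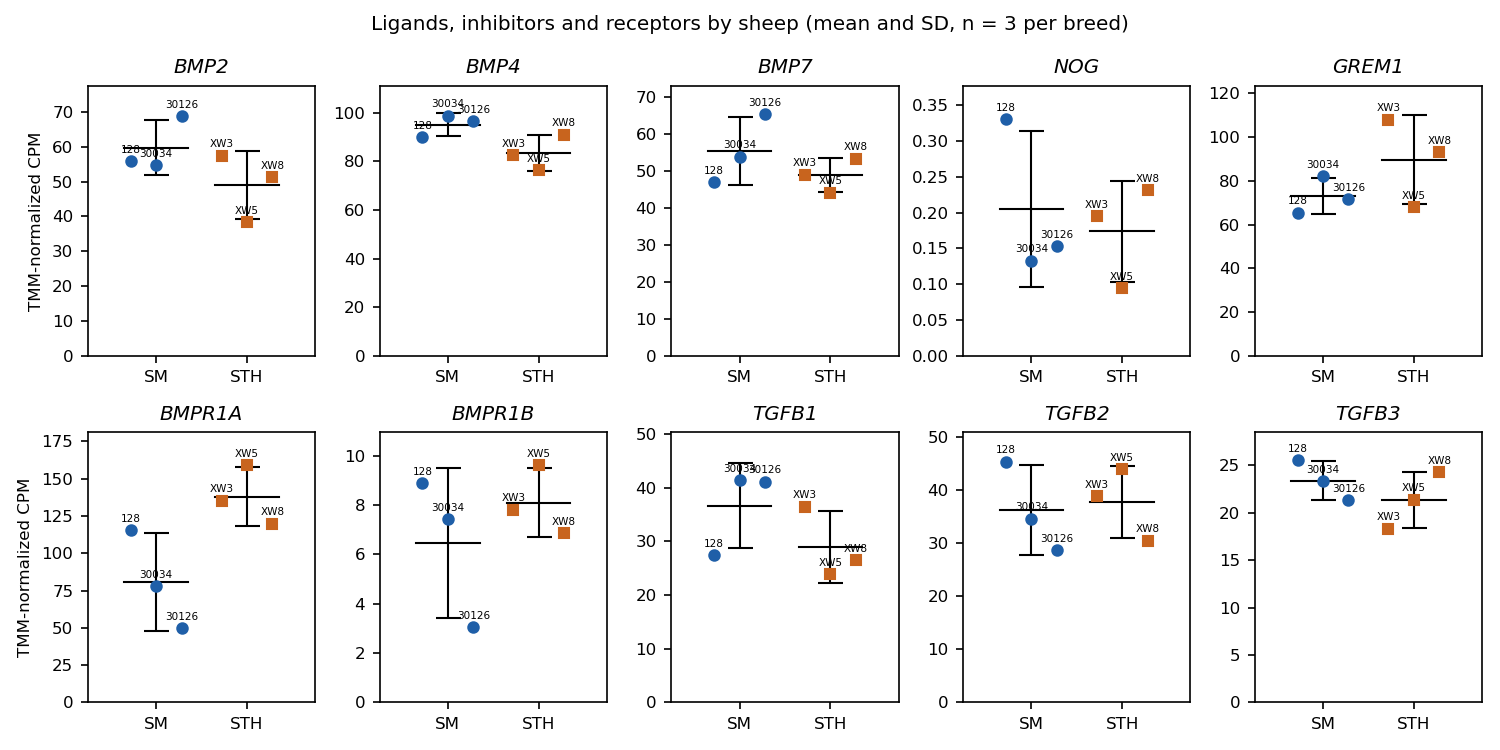
TMM-normalized CPM of each gene in each sheep, with axes starting at 0, the mean as a long bar and the SD as whiskers (n = 3 per breed). BMPR1A has its 3 STH sheep at 119.8 to 159 CPM and its 3 SM sheep at 49.9 to 115.4 CPM. The breeds overlap in the other 9 genes.

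**Figure D3:**
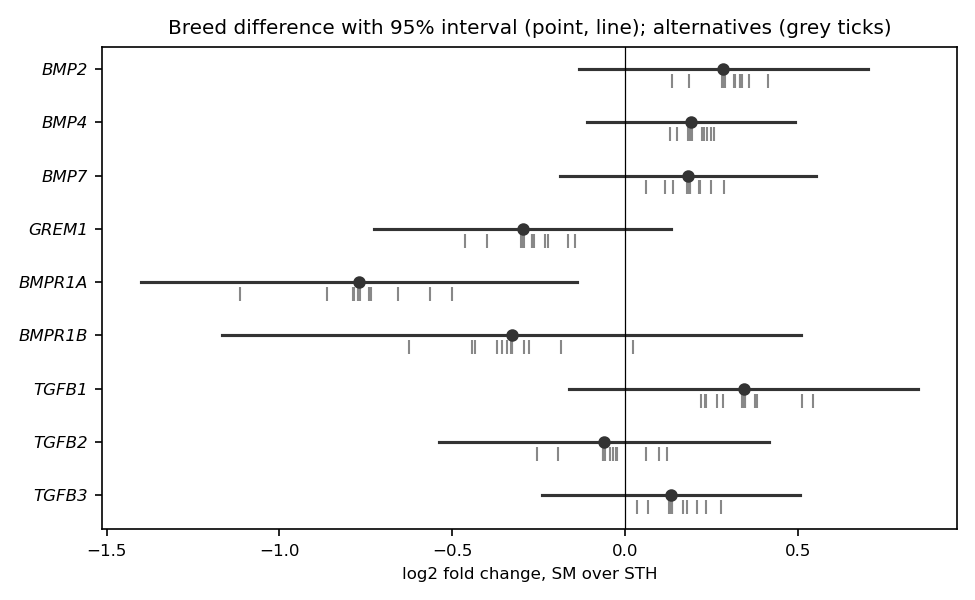
Log2 fold change of SM over STH for the 9 tested genes, with the 95% interval from the quasi-likelihood fit as bars and the line at 0 marking equal levels. The interval of BMPR1A, from -1.40 to -0.14, is the only 1 of the 9 that does not reach 0, and its adjusted p was 0.255.

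BMPR1A encodes the type I receptor known to be needed for hair shaft differentiation. Its TMM-normalized level was 115.4, 77.8 and 49.9 CPM in the SM animals 128, 30034 and 30126, whereas the STH animals XW3, XW5 and XW8 had 135.3, 159 and 119.8 CPM. The breeds did not overlap, although the highest SM sheep and the lowest STH sheep were close to each other. The means were 81.0 ± 32.8 CPM in SM and 138 ± 19.7 CPM in STH (SD, n = 3 each), a ratio of means of 1.704 for STH over SM. The log2 fold change was -0.77 (SE 0.28, 95% interval -1.40 to -0.14), with an unadjusted p of 0.0222 and an adjusted p of 0.255 by edgeR, so that BMPR1A was not called. The adjusted p was 0.110 by DESeq2 and 0.133 by the likelihood ratio test. The value rested on which SM sheep was included. Without SM 128 the log2 fold change was -1.11 and its adjusted p 0.0231 by edgeR, a call that 6.39% of 15203 genes shared in the same direction. Without SM 30126 it was -0.50, with an adjusted p of 0.429 by edgeR.

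Exon length moved with the libraries in a similar order. The length index of a library was the median log2 deviation from the mean of all sheep over the 3830 genes with the longest exon sums (at least 5163 bp), minus that over the 3830 genes with the shortest (at most 1823 bp). It was 0.14 in SM 128, -0.13 in SM 30034 and -0.52 in SM 30126, and 0.06 in XW3, 0.31 in XW5 and 0.15 in XW8. The exon sum of BMPR1A is longer than that of 89.2% of the genes tested. Among the 3830 genes with the longest exons the median log2 fold change was -0.18, and 18.5% of them had an unadjusted p under 0.05 with the higher level in STH. With the length trend of each library removed, BMPR1A had a log2 fold change of -0.57 (SE 0.20) with an adjusted p of 0.207 by edgeR. Where the length trend of the libraries came from was not tested.

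**Figure D4:**
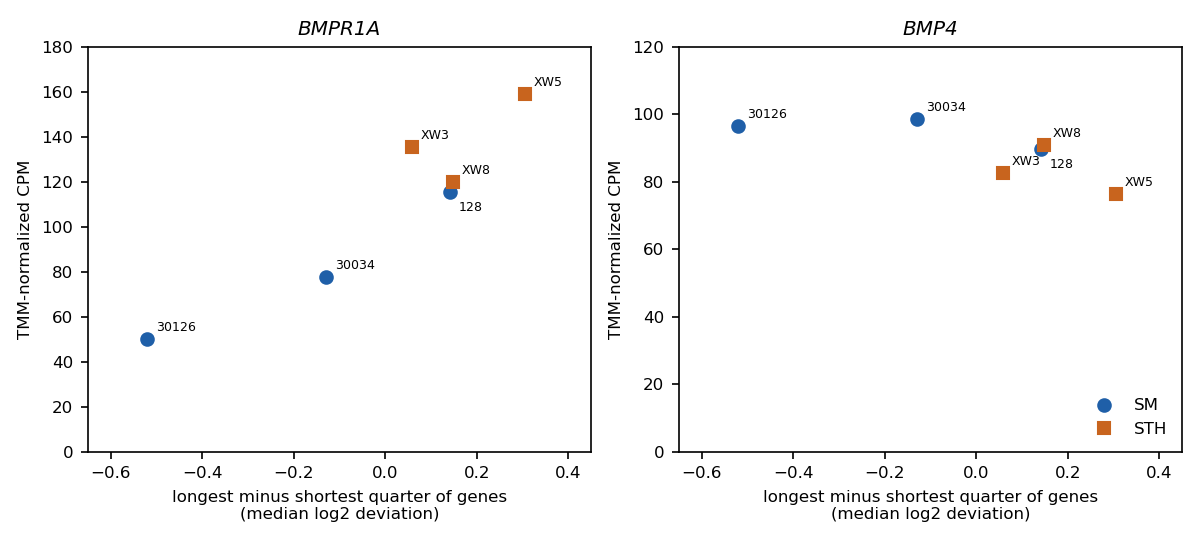
CPM of BMPR1A (left) and BMP4 (right) in each sheep against the length index of its library. The index is the median log2 deviation of the 3830 longest minus that of the 3830 shortest genes. For BMPR1A, SM 30126 is lowest on both axes (index -0.52, 49.9 CPM) and STH XW5 is highest on both (0.31, 159 CPM). For BMP4, SM 30126 has 96.5 CPM and XW5 has 76.3 CPM.

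BMPR1B encodes the other type I BMP receptor among the 10 genes. It had 8.89, 7.44 and 3.06 CPM in SM 128, 30034 and 30126, and 7.81, 9.62 and 6.85 CPM in XW3, XW5 and XW8. A single SM sheep, 30126, lay apart from the other 5, and the breeds overlapped. In log2 terms SM differed from STH by -0.33 (SE 0.37, 95% interval -1.17 to 0.51) with an adjusted p of 0.612 by edgeR, and without SM 30126 it was 0.025. The coefficient of variation over the SM sheep was 47.0% for BMPR1B and 40.5% for BMPR1A, the 2 widest of the tested genes in that breed, and over the STH sheep it was 17.4% and 14.3%.

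The 3 BMP ligands had slightly higher means in SM, none of them beyond the spread between sheep. BMP4 is made in the mesenchyme around and within the follicle, and it had 89.8, 98.7 and 96.5 CPM in SM 128, 30034 and 30126, and 82.6, 76.3 and 90.9 CPM in XW3, XW5 and XW8. Only SM 128 and STH XW8 crossed, and in deposited RPKM and with upper quartile normalization the breeds did not overlap, SM being higher. In RPKM these 2 sheep were nearly equal, with 20.487 in SM 128 and 20.481 in XW8. BMP4 had a log2 fold change of 0.19 (SE 0.13, 95% interval -0.11 to 0.49), with an adjusted p of 0.421 by edgeR. It varied least of the ligands, with a coefficient of variation of 4.87% in SM and 8.77% in STH.

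BMP2 is a ligand of the follicle epithelium. Its level was 55.8, 54.6 and 68.8 CPM in SM 128, 30034 and 30126, and 57.5, 38.4 and 51.3 CPM in XW3, XW5 and XW8, with a log2 fold change of 0.28 (SE 0.18, 95% interval -0.13 to 0.70). The breeds overlapped through XW3, and the adjusted p was 0.392 by edgeR. BMP7, a ligand that can pair with BMP2 or BMP4, had 47.1, 53.9 and 65.3 CPM in SM against 49.0, 44.2 and 53.3 CPM in STH, in the same order of animals. Its log2 fold change was 0.18 (SE 0.16, 95% interval -0.19 to 0.55), with an adjusted p of 0.523 by edgeR. For BMP2 and BMP7, the highest sheep was SM 30126 and the lowest STH XW5.

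The inhibitors were far apart in abundance, with GREM1 at 12.9 RPKM and NOG at 0.186 RPKM over all sheep. NOG, which encodes noggin, had 10, 6 and 6 counts in SM 128, 30034 and 30126, and 6, 4 and 7 counts in XW3, XW5 and XW8. These sum to 22 counts in SM and 17 in STH, and a breed difference was not detectable with so few counts. Whether the 705 bp model of NOG covers its whole transcript was not tested, and reads outside the model may be missing from these counts. Without the filter on low counts the log2 fold change of NOG was 0.24 with an adjusted p of 0.898 by edgeR. GREM1, which encodes gremlin, had 65.4, 82.0 and 71.7 CPM in SM against 107.8, 68.0 and 93.2 CPM in STH. The highest values were those of XW3 and XW8, but XW5 lay within the SM range. In log2 terms SM differed from STH by -0.30 (SE 0.19, 95% interval -0.73 to 0.13), with an adjusted p of 0.388 by edgeR.

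TGFB1, the TGF-beta isoform known from immune and dermal cells, had 27.5, 41.3 and 41.1 CPM in SM 128, 30034 and 30126, and 36.4, 23.8 and 26.4 CPM in XW3, XW5 and XW8. SM 30034 and 30126 were highest and SM 128 lay among the STH sheep. In log2 terms SM differed from STH by 0.34 (SE 0.22, 95% interval -0.16 to 0.85), with an adjusted p of 0.393 by edgeR. TGFB2 had 45.3, 34.6 and 28.6 CPM in SM against 38.7, 43.9 and 30.5 CPM in STH, with its highest and its lowest value both in SM. Its log2 fold change of -0.061 (SE 0.21, 95% interval -0.54 to 0.42; adjusted p 0.878 by edgeR) became 0.12 with the length trend removed. TGFB3 had 25.5, 23.3 and 21.4 CPM in SM against 18.3, 21.4 and 24.3 CPM in STH, a narrow range in which the breeds overlapped. Its log2 fold change was 0.13 (SE 0.16, 95% interval -0.24 to 0.51), with an adjusted p of 0.645 by edgeR.

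Ratios between the genes were set after their levels had been seen and are given as a description. Of the 36 pairs of tested members, 9 had an RPKM ratio that did not overlap between the breeds. Each of these pairs held GREM1 or BMPR1A, so that they are not separate results. The share over pairs of all genes was not computed. Among single genes, 25.4% did not overlap in RPKM, in either direction. The RPKM of GREM1 over that of BMP4 was 0.501, 0.572 and 0.511 in SM 128, 30034 and 30126, and 0.899, 0.613 and 0.705 in XW3, XW5 and XW8, so that every STH sheep lay above every SM sheep. With BMP4 as the denominator, 20.6% of 15319 genes had all STH sheep above all SM sheep. GREM1 over BMP2 was 0.860, 1.102 and 0.765 in SM against 1.38, 1.30 and 1.33 in STH, and with BMP2 as the denominator the share was 18.2%. BMPR1A over BMPR1B was 5.24, 4.22 and 6.60 in SM against 6.998, 6.68 and 7.07 in STH, and SM 30126 was close to XW5. With BMPR1B as the denominator the share of genes was 3.02%. The exon sums of BMPR1A and BMPR1B are 7913 and 3198 bp, and the part of the length trend in this ratio was not tested. BMPR1A over BMP4 was 0.488, 0.299 and 0.197 in SM against 0.623, 0.792 and 0.501 in STH, again without overlap. The ratios of BMP2 to BMP4 (0.472 to 0.668 over all sheep) and of BMP7 to BMP4 (0.889 to 1.15) overlapped between breeds.

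The other genes of the pathway were described in 7 lists of 110 genes found, 93 of them tested. By the main test 0 of the 93 were called. At an unadjusted p under 0.05, 15 (16.1%) were higher in SM and 11 (11.8%) higher in STH, against 7.21% and 10.8% of all genes. With upper quartile normalization the numbers were 17 and 5, against 1437 and 1402 of all genes. With the length trend removed, BMP3, CHRDL1, ITGAV, ID1 and ID3 had an unadjusted p of 0.065 to 0.190 by edgeR. The rest of those 15 and 11 genes stayed under 0.05, and further pathway genes came under it. Every SM animal was higher for 21 of the 93 (22.6%) and every STH animal for 8 (8.6%), against 12.3% and 13.3% of all genes. DESeq2 and the likelihood ratio test each called 3 of the 93, namely TGFBR2, MSX1 and POSTN, against 2.89% and 2.3% of all genes.

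**Figure D5:**
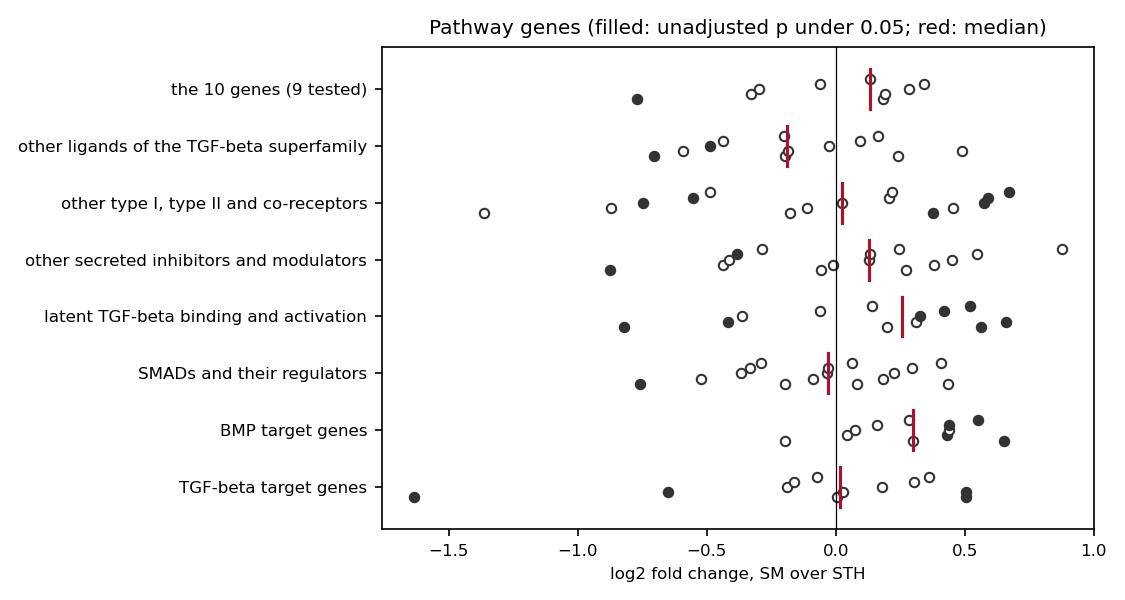
Log2 fold changes of SM over STH for the tested genes of the 7 pathway lists and of the 9 tested members, 1 point per gene, filled at an unadjusted p under 0.05, with the median of each list as a red bar. The medians run from -0.19 for the other ligands to 0.30 for the BMP target genes, and the points of every list lie on both sides of 0.

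Among the other receptors, 15 were tested, with 4 at an unadjusted p under 0.05 and higher in SM, 2 higher in STH, and a median log2 fold change of 0.02. TGFBR2, the type II receptor of TGF-beta, had 43.1, 51.5 and 54.0 CPM in SM 128, 30034 and 30126, and 36.7, 29.7 and 26.9 CPM in XW3, XW5 and XW8. The breeds did not overlap, and SM was higher. The log2 fold change was 0.67 (SE 0.17), and the adjusted p was 0.234 by edgeR's quasi-likelihood test, 0.0306 by DESeq2 and 0.0435 by the likelihood ratio test. The others with the higher mean in SM were ACVRL1, a type I receptor of endothelium (0.57, adjusted p 0.247 by edgeR), BAMBI, a decoy receptor (0.59, adjusted p 0.254 by edgeR), and RGMA, a BMP co-receptor (0.38, adjusted p 0.260 by edgeR). BMPR2, the type II BMP receptor, had 57.2, 33.4 and 24.7 CPM in SM against 51.6, 88.3 and 53.4 CPM in STH. SM 128 lay within the STH range, and the log2 fold change was -0.75 with an adjusted p of 0.276 by edgeR. The activin receptor ACVR2A had a log2 fold change of -0.55 with an adjusted p of 0.275 by edgeR.

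Of the 26 other ligands of the superfamily, 12 were tested, with a median log2 fold change of -0.19. At an unadjusted p under 0.05 there were 2, both higher in STH, which were BMP3 (log2 fold change -0.49, adjusted p 0.272 by edgeR) and GDF11 (-0.70, adjusted p 0.276). Of the 15 other inhibitors and modulators tested, 2 were past that level, both higher in STH. BMPER, a BMP-binding modulator, had 2.05, 2.50 and 1.32 CPM in SM against 3.37, 4.41 and 3.01 CPM in STH (log2 fold change -0.88, adjusted p 0.260 by edgeR). CHRDL1, a chordin-like BMP inhibitor, had a log2 fold change of -0.38 with an adjusted p of 0.260 by edgeR.

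The 12 genes listed under latent TGF-beta binding and activation together gave a median log2 fold change of 0.25. At an unadjusted p under 0.05, 5 were higher in SM and 2 higher in STH. LTBP2, a microfibril protein of the latent TGF-beta binding family, had 126.3, 129.2 and 136.4 CPM in SM 128, 30034 and 30126, and 88.5, 77.2 and 99.4 CPM in XW3, XW5 and XW8. The breeds did not overlap, and SM was higher, with a log2 fold change of 0.56 and an adjusted p of 0.234 by edgeR. The adjusted p of LTBP2 was 0.0287 by DESeq2, but its fold change stayed under the threshold of 1.5. The others higher in SM were LTBP3 (0.33), LTBP4 (0.52), the microfibril gene FBN1 (0.42) and LRRC32, which tethers latent TGF-beta to the cell surface (0.66), with adjusted p between 0.247 and 0.272 by edgeR. The integrin genes ITGAV (-0.42) and ITGB8 (-0.82), whose products together release active TGF-beta, had the higher means in STH, with adjusted p of 0.276 and 0.273 by edgeR.

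The log2 fold changes of the 16 SMADs and their regulators lay on both sides of 0, from -0.76 to 0.43, with a median of -0.03. Of these, 1 had an unadjusted p under 0.05. That gene was SKIL, a repressor of SMAD activity, with 45.1, 27.5 and 17.6 CPM in SM against 44.6, 61.9 and 46.0 CPM in STH (log2 fold change -0.76, adjusted p 0.266 by edgeR).

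BMP target genes had the highest median of the 7 lists, 0.30, with 10 of 11 log2 fold changes above 0. Over all genes tested, 7873 of 15320 lay above 0. The median exon sum of the BMP target genes, 1755 bp, was the shortest of the 7 lists. With the length trend removed, ID4 (-0.20) was still the only gene of this list with a log2 fold change below 0. In the main fit 4 genes had an unadjusted p under 0.05, all higher in SM. MSX1, a homeobox gene of the follicle, had 75.2, 62.6 and 87.3 CPM in SM 128, 30034 and 30126, and 51.4, 48.1 and 43.7 CPM in XW3, XW5 and XW8, so that the breeds did not overlap. Its log2 fold change was 0.65 (SE 0.16), with an adjusted p of 0.232 by edgeR's quasi-likelihood test, 0.0262 by DESeq2 and 0.0398 by the likelihood ratio test. DLX3, a homeobox gene needed for the hair shaft, had 489.3, 463.5 and 706.1 CPM in SM against 437, 312.7 and 382.5 CPM in STH (log2 fold change 0.55, adjusted p 0.256 by edgeR). ID1 and ID3, direct SMAD targets that restrain differentiation, had log2 fold changes of 0.44 (adjusted p 0.260 by edgeR) and 0.43 (adjusted p 0.276). With the length trend removed, the log2 fold changes were 0.61 for MSX1, 0.61 for DLX3, 0.30 for ID1 and 0.31 for ID3. In all 4 genes the highest sheep was SM 30126. The summed CPM of 6 follicle matrix and shaft markers, the cells in which several of these genes are known to be active, was 2197, 2322 and 4392 in SM against 2416, 1399 and 1785 in STH, and its part in these values was not tested.

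The 12 TGF-beta target genes tested together gave a median log2 fold change of 0.02, and 2 were at an unadjusted p under 0.05 in each direction. POSTN, which encodes the matrix protein periostin, had 808.6, 651.5 and 238.9 CPM in SM 128, 30034 and 30126, and 1132, 2020 and 2123 CPM in XW3, XW5 and XW8. The breeds did not overlap, and STH was higher. The log2 fold change was -1.63 (SE 0.42), with an adjusted p of 0.240 by edgeR's quasi-likelihood test, 0.00359 by DESeq2 and 0.0144 by the likelihood ratio test. ACTA2, smooth muscle actin, had 340.1, 380.3 and 413.1 CPM in SM against 727, 436.9 and 614.5 CPM in STH (log2 fold change -0.65, adjusted p 0.247 by edgeR). The summed CPM of 5 smooth muscle markers ran in the same direction, with 772 to 918 in SM and 1299 to 1516 in STH, and its part in the value of ACTA2 was not tested. CTGF (0.51, adjusted p 0.270 by edgeR) and TGFBI (0.51, adjusted p 0.260) had the higher means in SM.

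Markers of the cell types of skin were summed beside these values. The sums of suprabasal epidermal and smooth muscle markers were higher in every STH sheep than in every SM sheep, and that of 6 sebocyte markers was higher in every SM sheep (1421 to 2375 CPM) than in every STH sheep (1070 to 1114 CPM). The sums of the other 9 lists overlapped, dermal papilla markers included, with 573, 373 and 286 CPM in SM 128, 30034 and 30126, and 486, 421 and 318 CPM in XW3, XW5 and XW8. The part of cell composition in the levels of the 10 genes was not tested.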

How the data were processed

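The samples were skin of 3 SM and 3 STH ewes, each sequenced alone as a paired-end library. Per the methods of the study, reads were mapped to Oar_v4.0 with the RNA-seq plugin of CLC Genomics Workbench. The authors deposited for each gene a total count, which is a whole number without normalization. They also deposited RPKM values, which are scaled to exon length and counted fragments, and these were used here for levels between genes. The deposited TPM values and a deposited score that the authors named CPM, whose sum is not that of true CPM values, were not used for any result. Exon lengths were recovered from counts and RPKM. The study divides the counted fragments of each sheep into exon, exon-exon, intron, intergenic and non-specific ones. Which of them entered the total count of a gene, and whether by strand, is not given in the sources used here.

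A gene was kept if 3 or more sheep had at least 10 counts, and kept genes were tested with edgeR 4.0.16 (R 4.3.3) on the counts, with TMM normalization, breed as the only term and Benjamini-Hochberg adjustment over all genes tested. CPM values in the text are TMM-normalized. Standard errors are the size of the log2 fold change over the square root of F. The alternatives were DESeq2 1.42.0, the likelihood ratio test, another dispersion setting, upper quartile normalization, no count filter, removal of each library's length trend (loess, span 0.5), each sheep left out, and limma 3.58.1 on log2(RPKM + 0.1). The scripts were tested on simulated data. An exact permutation test of 3 against 3 sheep cannot go below 0.1, so that none was used for single values. Replicate libraries were individual sheep, no 2 libraries held identical values, and the labels give no number that would pair sheep of the 2 breeds.

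The 10 genes and all lists were chosen with earlier results of these data known. Named were the 10 genes and, in each pathway list, the genes with an unadjusted p under 0.05. The lists held other ligands, other receptors, other inhibitors and modulators, latent TGF-beta genes, SMADs, BMP targets and TGF-beta targets, and markers of 12 cell types or compartments. LRRC33 among the pathway genes, and KRT85, KRT31, LOR, FLG, LMOD1 and TNNT3 among the markers, were not matched to a symbol in the files and were not analysed here.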

Additional observations from a re-analysis of the deposited data

How the results depend on the processing

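The count of genes past both thresholds depended most on the test and on sheep 128. It was 0 with the quasi-likelihood test and with upper quartile normalization, 2 with the other dispersion setting, 2 without the count filter, 8 with the length trend removed, 352 with the likelihood ratio test and 443 with DESeq2. With each sheep left out in turn it ran from 0 to 1175, the highest without SM 128 (203 higher in SM and 972 in STH). Of the members, 0 were called in every alternative but 1, and with each sheep left out the count ran from 0 to 1, BMPR1A without SM 128. The members whose breeds did not overlap numbered 1 of 9 in the main values (25.6% of all genes, in either direction), 2 (BMP4 and BMPR1A) with upper quartile normalization (26.1%) and 2 (the same pair) in RPKM (25.4%). With each sheep left out they ran from 1 to 4. They were 4 without SM 128 (49.5% of all genes), 1 without SM 30034 (33.1%) and 1 without SM 30126 (30.8%). They were 3 without XW3 (41.9%), 2 without XW5 (30.3%) and 2 without XW8 (37.1%), and BMPR1A was among them each time. The 26 pathway genes at an unadjusted p under 0.05 became 22 with upper quartile normalization and 8 to 30 with a sheep left out, the lowest without STH XW5 (7.34% of all genes) and the highest without SM 128 (30.3%). They were 15 without SM 30034 (10.7% of all genes), 12 without SM 30126 (11.3%), 24 without STH XW3 (15.1%) and 13 without STH XW8 (12.5%). The sign turned in 2 members. TGFB2 had a log2 fold change of 0.12 with the length trend removed and of -0.26 to 0.10 with a sheep left out, and BMPR1B ran from -0.62 to 0.025 with a sheep left out. The other 7 tested members kept their sign in all 13 alternatives. Apart from the alternatives' own construction, the cause of these changes was not tested. With NOG at 4 to 10 counts per sheep, the few counts limit what can be said of it.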
